A study of Mus musculus with 73 samples.

Results

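Mammary tumors of mice carrying a floxed Brca1 gene on a p53-mutant background were compared with mammary tumors of mice carrying floxed p53. Each tumor had been hybridised, on a 2-colour cDNA microarray, directly against normal mammary gland of wild-type mice. The members are the 5 arrays whose tumor channel is labelled Brca1 Co/Co;MMTV-cre;p53 (called Brca1 floxed p53 tumors here) and the 4 arrays labelled p53fp/fp;WAP-cre (p53 floxed tumors), 9 of the 73 arrays of the series and of its 38 direct tumor against normal arrays. Tumor and normal gland of both models are labelled C57BL6/129sv. The models differ in more than Brca1, since Cre is driven by the MMTV promoter in the first and by the WAP promoter in the second, and the label of the first does not state which p53 alleles it carries. Ages, and whether the tumors came from separate animals, are not given in the sources used here, so the p-values measure the spread between arrays.

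Brca1 acts in homologous recombination, the pathway that repairs double-strand DNA breaks from an intact copy, and p53 arrests or kills cells with damaged DNA. Loss of Brca1 is poorly tolerated by cells with working p53, and mouse models of Brca1 mammary cancer therefore usually combine both lesions. The MMTV promoter is active in mammary epithelium and in some other tissues, and the WAP promoter, that of a milk protein, in the secretory epithelium of pregnancy and lactation. What the comparison asks is which transcripts differ between tumors of the Brca1 floxed p53 and p53 floxed models. The effect of deleting Brca1 in addition to p53 was not tested separately. The promoter that drives Cre differs as well, and the p53 alleles of the Brca1 floxed p53 model are not stated.

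Values are log2 ratios of tumor over normal gland with each array's median set to 0, and a difference is the Brca1 floxed p53 mean minus the p53 floxed mean, given with its standard error from limma. Above or below normal gland means a ratio above or below 0 on this scale, relative to the array's median gene. A gene was called at a Benjamini-Hochberg adjusted p under 0.05 over the 5768 genes tested. Each ratio holds its own normal gland, so a difference between tumors and a difference between the glands they were set against cannot be told apart. The same holds for fewer cells of a type and less RNA per cell in these bulk samples. The number of features with a ratio was 7287 to 7894 per Brca1 floxed p53 array and 7086 to 7859 per p53 floxed array. The median SD between arrays over genes was 0.450 in Brca1 floxed p53 tumors and 0.305 in p53 floxed tumors, against 0.207 to 0.356 in the other 6 direct models, which contribute to the pooled spread of the test.

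The models differed in many genes. Of 5768 genes, 764 (13.2%) were called, with 305 higher (5.29%) and 459 lower (7.96%) in Brca1 floxed p53 tumors. At least a 2-fold difference was reached by 88 of the higher (1.53%) and 195 of the lower genes (3.38%), 283 in all (4.91%). All arrays of 1 model lay on 1 side of all arrays of the other in 542 genes (9.4%), and 374 genes were called as well (6.48%). The count depends on the spread assumed. With the spread taken from the 9 arrays alone 52 genes were called (0.902%), 9 higher and 43 lower, and all 52 were among the 764. The split into higher and lower depends on scaling, at 632 higher and 97 lower with the values as deposited (11% and 1.68%) and 143 higher and 124 lower after quantile normalization (4.63% of genes in all, 2.48% and 2.15%), and the median difference over all genes moved by 0.29 without centring. Leaving out p53 floxed array 3 left 503 calls.

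The database numbers of the arrays separate the groups. Brca1 floxed p53 arrays 1 to 3 fall in 1 run of numbers, arrays 4 and 5 in another, and the p53 floxed arrays in a run of their own, next to those of the p53 null transplant tumors. Group and number run therefore cannot be told apart for the comparison, and with the run as a random block 205 genes were called (3.55%; 1.32% higher and 2.24% lower), all among the 764. The 2 runs of the Brca1 floxed p53 group gave different medians for several gene lists. With arrays 1 to 3 alone the median difference of ribosomal protein genes was 0.30 and that of proteasome genes 0.30, and with arrays 4 and 5 alone they were -1.44 and -1.01. Over all genes that could be tested, 9.7% were called higher and 7.82% lower with arrays 1 to 3 alone, and 7.82% higher and 15.2% lower with arrays 4 and 5 alone. Dividing each array by its median absolute deviation left 6.29% of genes called, 2.2% higher and 4.09% lower.

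By median correlation, Brca1 floxed p53 tumors were more alike within a number run, and less alike across runs, than the p53 floxed tumors were. Over the 3962 genes with all 9 values, Pearson's r, across genes, was 0.634 to 0.748 between Brca1 floxed p53 arrays of the same run and 0.432 to 0.674 across runs. Between p53 floxed arrays, all of 1 run, it was 0.528 to 0.749. The median r was 0.734 for Brca1 floxed p53 pairs of the same run, 0.538 for those across runs and 0.626 for p53 floxed pairs. Differences between tumors and between runs cannot be told apart here. Between the models r was 0.494 to 0.662 for Brca1 floxed p53 arrays 1 to 3 and 0.363 to 0.460 for arrays 4 and 5. The first principal component (26.9% of the variance) set arrays 4 and 5 apart from all others, and the second (22.5%) ordered the models.

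**Figure D1:**
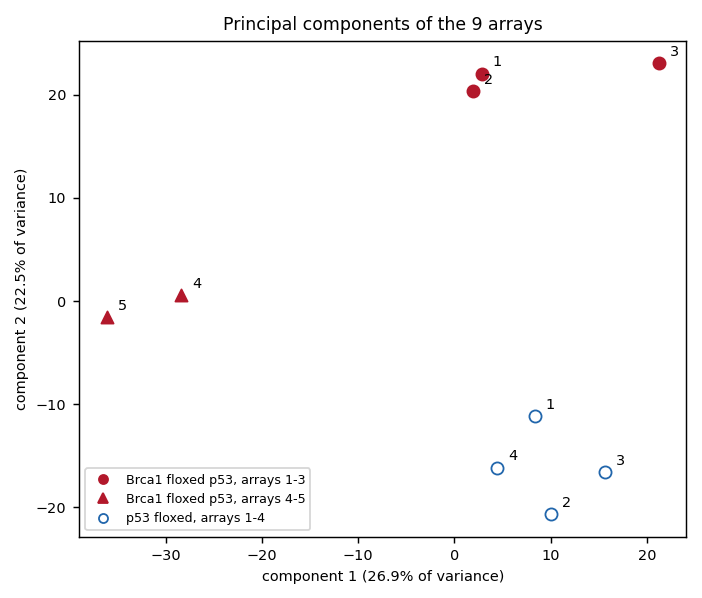
Scores of the 9 arrays on the first 2 principal components of the centred log2 ratios (3962 genes), filled for Brca1 floxed p53 tumors (circles arrays 1 to 3, triangles arrays 4 and 5) and open for p53 floxed tumors. Brca1 floxed p53 arrays 1 to 3 lie at 20.4 to 23 on component 2, arrays 4 and 5 near 0 and the p53 floxed arrays at -20.6 to -11.1.

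**Figure D2:**
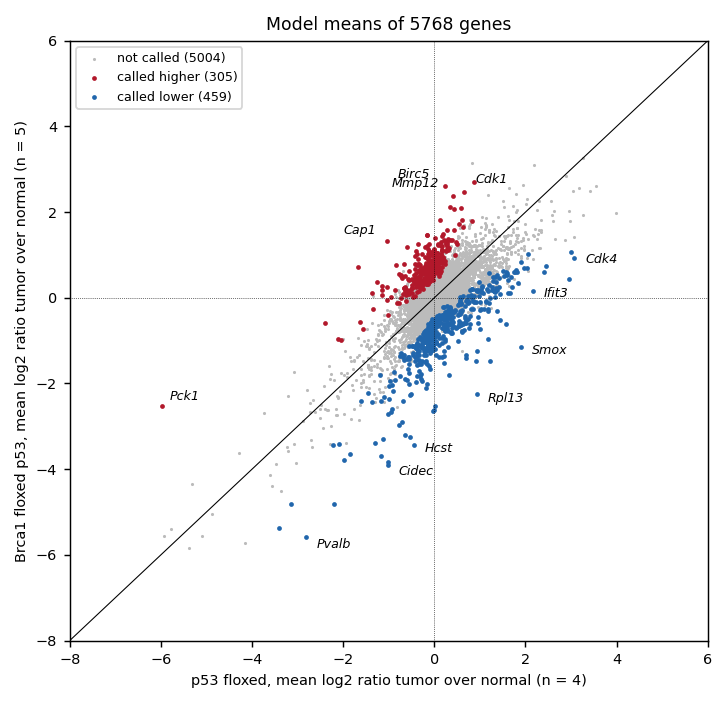
Mean log2 ratio of tumor over normal gland of each of 5768 genes, Brca1 floxed p53 (n = 5 arrays, vertical) against p53 floxed (n = 4, horizontal), with the 305 genes called higher in red and the 459 called lower in blue. Called genes run along both sides of the line of equality, and Pck1 lies far below 0 in both models.

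Of the 305 higher genes, 196 had a mean above 0 in Brca1 floxed p53 tumors and below 0 in p53 floxed tumors, 97 were above 0 in both, and 12 were below 0 in both. Of the 459 lower genes, 198 were below 0 in Brca1 floxed p53 tumors and above 0 in p53 floxed tumors. A further 196 were below 0 in both models, so that these transcripts stood lower than in normal gland in either model and further below it in Brca1 floxed p53 tumors. The ratios were also spread more widely on the Brca1 floxed p53 arrays. Their interquartile range over features was 0.74 to 1.08 per array, against 0.64 to 0.73 on the p53 floxed arrays. The part of this wider spread in such differences was not tested.

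Brca1 itself was higher in the tumors that carry its floxed allele. Its 1 feature had log2 ratios of 0.04, 2.23, 1.84, 0.70 and 0.44 in Brca1 floxed p53 tumors 1 to 5, against -0.26, 0.03 and -0.10 in p53 floxed tumors 1, 3 and 4, with no value on array 2. The groups do not overlap, although Brca1 floxed p53 tumor 1 sat at 0.04, next to the p53 floxed tumor at 0.03. The difference was 1.16 ± 0.39 (adjusted p = 0.0439). It was not called with the spread of the 9 arrays alone (adjusted p = 0.251) or with the number run as a block (adjusted p = 0.157). It was also lost without Brca1 floxed p53 array 2 (0.86) or 3 (0.96), and without p53 floxed array 2, which holds no value of the gene (1.16). The part of the transcript that the cDNA covers is not given in the sources used here, so the feature does not check the deletion, which leaves part of the gene in place. Trp53, the gene of p53, had no gene-level value on the direct arrays and was not analysed here.

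Among the other genes of homologous recombination, Nbn was lower in every Brca1 floxed p53 tumor. Nbn encodes nibrin, a subunit of the Mre11 complex that senses double-strand breaks. It stood at -1.71, -2.33, -1.54, -1.60 and -2.89 in Brca1 floxed p53 tumors, against -0.59, -0.38, -0.67 and -0.57 in p53 floxed tumors. The groups are well apart, with a difference of -1.46 ± 0.23 (adjusted p = 5.49e-05), which was also called with the 9 arrays alone (adjusted p = 0.0419). Of 13 measured genes of the recombination list Brca1 rose and Nbn fell (15.4% called, against 13.2% of all genes). The list's median difference was 0.14, against -0.04 over all genes. Brca2, which acts in the same pathway, differed by 0.28 ± 0.18 and was not called. Bard1 was not analysed here. In other repair pathways 4 of 22 genes fell and none rose (18.2%, against 7.96% of all genes called lower). The list's median difference was -0.03, with 10 members above 0 and 12 below. The 4 were the nucleotide excision repair factor Xpc (-0.71 ± 0.19), its damage-binding partner Ddb1 (-1.07 ± 0.34), the translesion polymerase Rev1 (-0.67 ± 0.19) and the uracil glycosylase Ung (-0.87 ± 0.27). None of these 4 was called with the 9 arrays alone or with the number run as a block. Ddb1 had 1.39, 2.11, 0.10 and -0.27 in Brca1 floxed p53 tumors 2 to 5. Its p53 floxed values, in tumors 1, 3 and 4, were 1.78 to 2.04.

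Of 20 measured genes that p53 is known to activate, 4 fell (20%, against 7.96% of all genes called lower) and none rose. The median difference of the list was 0.08, with 10 members above 0 and 10 below. With the 9 arrays alone, and with the number run as a block, only Ccng1 of the 20 was called (adjusted p = 0.0271 and 0.0341). After quantile normalization only Gadd45a was called (adjusted p = 0.046). Ccng1, cyclin G1, had -3.72, -4.50, -3.36, -3.38 and -3.28 in Brca1 floxed p53 tumors, against -2.32, -1.33, -1.45 and -2.33 in p53 floxed tumors, a difference of -1.79 ± 0.39 (adjusted p = 0.00242). Both models thus lay far below normal gland, and every Brca1 floxed p53 tumor lay below every p53 floxed tumor, but after quantile normalization the difference of Ccng1 was -0.80 (adjusted p = 0.25). The stress-induced growth arrest gene Gadd45a had 0.32, -0.31, -0.16 and -0.86 in Brca1 floxed p53 tumors 2 to 5, against 1.78, 0.37, 1.14 and 1.09 in p53 floxed tumors (-1.35 ± 0.32, adjusted p = 0.00521). The lowest p53 floxed tumor, at 0.37, stood only just above the highest Brca1 floxed p53 tumor, at 0.32. The others were Sfn (14-3-3 sigma, a G2 checkpoint protein, -0.58 ± 0.19) and the peptide transporter Tap1. Cdkn1a, the p21 inhibitor of cyclin-dependent kinases, differed by 0.25 ± 0.52 and was not called, with 3.55 in Brca1 floxed p53 tumor 1 and 0.68 to 1.03 in tumors 2 to 4, against -0.12 to 2.62 in p53 floxed tumors. Mdm2 was not analysed here.

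Of 15 measured genes of the Rb pathway, which holds cells in G1, 1 rose and 2 fell (20% called, against 13.2% of all genes). Cdk4, the kinase that inactivates Rb, had 1.63, 1.05, 1.86, 0.02 and 0.09 in Brca1 floxed p53 tumors, against 3.03, 2.56, 2.94 and 3.74 in p53 floxed tumors (-2.14 ± 0.52, adjusted p = 0.00639). It stood above normal gland in both models, and less so in all 5 Brca1 floxed p53 tumors, of which arrays 4 and 5 were lowest. Rb1 itself had -1.43, -0.94, -1.15 and -1.64 in Brca1 floxed p53 tumors 2 to 5, against -0.71, -0.45, 0.02 and -0.41 in p53 floxed tumors (-0.90 ± 0.21, adjusted p = 0.00497). E2f3, a transcription factor that Rb restrains, rose in the same tumors, with 0.77, 0.86, 0.67, 0.73 and 0.81 in Brca1 floxed p53 tumors, against 0.46, -0.04, -0.02 and -0.08 in p53 floxed tumors (0.69 ± 0.14, adjusted p = 0.00179). The 5 Brca1 floxed p53 values of E2f3 fell within a narrow range, whereas p53 floxed tumor 1 stood apart from the other 3. Of these 3 genes Cdk4 was also called with the 9 arrays alone (adjusted p = 0.0375). Cdkn2d, an inhibitor of Cdk4, had the largest difference among those not called (0.77 ± 0.27, adjusted p = 0.0503). Ccnd1, the cyclin partner of Cdk4, differed by 0.24 ± 0.43 and Myc by -0.48 ± 0.24, neither called.

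Some genes of mitosis were higher in Brca1 floxed p53 tumors. Of 36 measured members 10 rose (27.8%, against 5.29% of all genes called higher) and none fell, while 22 differences lay above 0 and 14 below it. The median difference of the list was 0.18, and it was -0.17 with the mean of the skeletal muscle list as a covariate. Cdk1, the kinase that starts mitosis, had 3.00, 2.59, 2.94, 1.33 and 2.50 in Brca1 floxed p53 tumors, against 1.20, 0.03, 0.59 and 0.82 in p53 floxed tumors, a 3.51-fold difference (1.81 ± 0.29, adjusted p = 9.91e-05). Every Brca1 floxed p53 tumor lay above every p53 floxed tumor, with array 4 closest. Birc5, survivin, a subunit of the chromosomal passenger complex, had 3.95, 3.00 and 0.91 in Brca1 floxed p53 tumors 1, 2 and 5, against 0.43, -0.08, 0.42 and 0.14 in p53 floxed tumors (2.39 ± 0.39, adjusted p = 0.00013). Its kinase partner Aurkb had 1.81, 1.64, 1.17, 0.74 and 1.38 in Brca1 floxed p53 tumors, against 0.16, 0.24, 0.65 and 0.54 in p53 floxed tumors (0.95 ± 0.21, adjusted p = 0.00215). Both of these genes thus lay wholly above the p53 floxed tumors, and tumor 1 was highest in both. Incenp, a further subunit of the complex, was not called (-0.21 ± 0.31, adjusted p = 0.693). It had 0.23 to 1.05 in Brca1 floxed p53 tumors and 0.28 to 1.30 in p53 floxed tumors 1, 3 and 4. The chromosome motor Kif4 had 1.79, 1.53, 0.93 and 1.26 in Brca1 floxed p53 tumors 1 to 4, against 0.26, 0.10, 0.55 and 0.26 in p53 floxed tumors, with an adjusted p of 0.000488.

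The other 6 mitosis genes called were named for their list membership after their values were seen. They were the cyclins Ccna2 (1.20 ± 0.29) and Ccnb2 (1.11 ± 0.28), the separase inhibitor Pttg1 (1.02 ± 0.29), the condensin subunits Ncaph (1.00 ± 0.23) and Ncapg (0.75 ± 0.20), and Cdc25c, the phosphatase that activates Cdk1 (0.67 ± 0.17). Smc4, also of condensin, was not called (-0.54 ± 0.31, adjusted p = 0.246). Not all markers of dividing cells followed. Mki67 had 0.31, 0.42, 0.10, -0.44 and -0.18 in Brca1 floxed p53 tumors, against 0.12, 0.87 and 0.75 in p53 floxed tumors 2 to 4, and was not called (-0.54 ± 0.25, adjusted p = 0.143). Top2a, a topoisomerase of dividing cells, differed by 0.30 ± 0.52. Anln, a cytokinesis protein, had the largest difference not called (0.84 ± 0.47). With Brca1 floxed p53 arrays 1 to 3 alone 10 members rose and the list's median difference was 0.54, and with arrays 4 and 5 alone 4 rose, 3 fell and the median was -0.29. Only 1 member, Cdk1, was called with the spread of the 9 arrays alone (adjusted p = 0.0419), and 5 with the number run as a block.

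Of 31 measured DNA replication genes 3 rose and 1 fell (12.9% called, near the 13.2% of all genes), at a median difference of 0.37. Mcm7, a subunit of the replicative helicase, had 2.30, 2.21, 1.95, 0.85 and 1.78 in Brca1 floxed p53 tumors, against 0.57, 0.02, 1.21 and 0.59 in p53 floxed tumors (1.22 ± 0.27, adjusted p = 0.00352). Its highest p53 floxed value, 1.21, lay above Brca1 floxed p53 array 4. Dtl, which directs degradation of the licensing factor Cdt1, rose by 1.14 ± 0.29, and the primase subunit Prim2 by 0.83 ± 0.27. Gins3, a subunit of the helicase complex, went the other way, at 1.06, 0.91, 1.18, -1.12 and -1.52 in Brca1 floxed p53 tumors, against 1.54, 2.40, 1.69 and 1.05 in p53 floxed tumors (-1.57 ± 0.42, adjusted p = 0.0113). With arrays 4 and 5 alone the median difference of the list was -0.30, against 0.58 with arrays 1 to 3 alone. Uhrf1, a reader of methylated DNA, had the largest difference not called (1.05 ± 0.37, adjusted p = 0.0548), with 3.38 and 2.63 in Brca1 floxed p53 tumors 1 and 2 and 0.75 to 0.92 in tumors 3 to 5, against 0.44 to 0.77 in p53 floxed tumors.

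Promoters of mitotic genes often hold the cell cycle homology region, or CHR, read as TTTGAA, together with CCAAT boxes. The windows of Cdk1 and Kif4 are shown because these are the mitosis genes with the smallest p among those with a window that holds either motif. Each runs over the 250 bases before the transcription start in RefSeq's GRCm38.p6 annotation, 5′ to 3′ on the gene's strand, in lower case with both motifs, on either strand, in capitals. Cdk1 lies on the minus strand (chr10:69352913-69353162) and Kif4 on the plus strand (chrX:100625815-100626064).
Cdk1: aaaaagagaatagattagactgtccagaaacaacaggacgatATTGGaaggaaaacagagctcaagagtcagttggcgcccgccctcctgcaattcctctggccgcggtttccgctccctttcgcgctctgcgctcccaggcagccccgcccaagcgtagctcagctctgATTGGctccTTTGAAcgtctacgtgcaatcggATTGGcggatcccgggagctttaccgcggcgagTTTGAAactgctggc
Kif4: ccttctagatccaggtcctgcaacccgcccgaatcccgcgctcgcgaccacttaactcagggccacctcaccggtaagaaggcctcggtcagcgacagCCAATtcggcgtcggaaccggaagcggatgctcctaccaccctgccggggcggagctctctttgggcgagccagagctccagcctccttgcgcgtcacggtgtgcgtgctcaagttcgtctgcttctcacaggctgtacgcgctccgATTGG
Cdk1 holds 2 matches to TTTGAA and 3 to CCAAT, and Kif4 holds 2 to CCAAT, none of them overlapping. Over 4559 tested genes with a window, 13.4% held TTTGAA and 39.3% held CCAAT. Of the 10 mitosis genes called, 7 had a window, and TTTGAA was found in 3 and CCAAT in 4 of them. Among the 26 members not called, 21 had a window, with TTTGAA in 6 and CCAAT in 15, so neither motif marked out the members that rose. Birc5 held no match in this window.

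**Figure D3:**
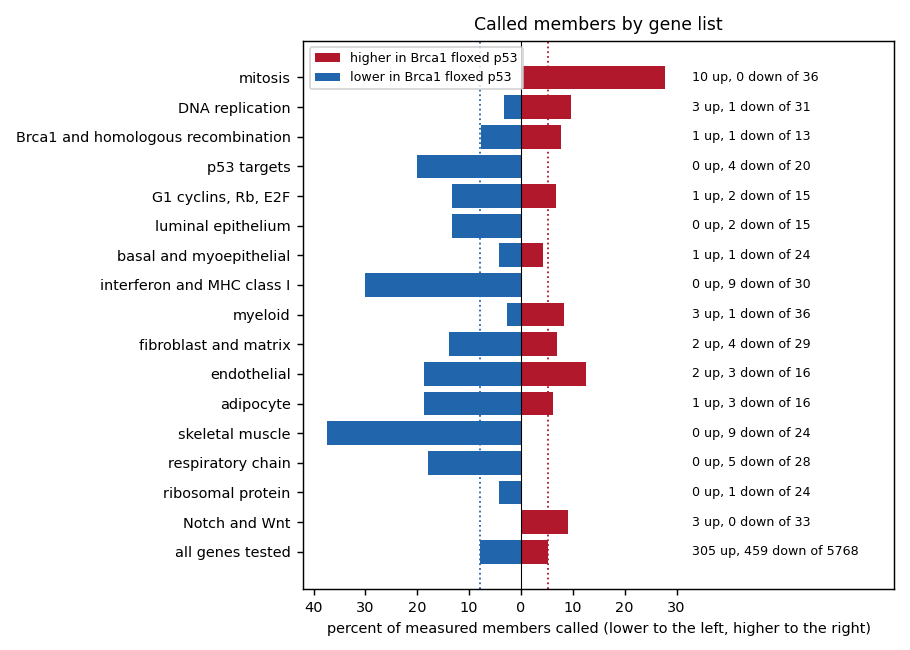
Percent of the measured members of each of 16 gene lists, and of all 5768 genes, called higher (red, right) or lower (blue, left) in Brca1 floxed p53 tumors, with the shares over all genes as dotted lines. Mitosis has 10 of 36 members higher, interferon and MHC class I 9 of 30 lower and skeletal muscle 9 of 24 lower, against 5.29% higher and 7.96% lower over all genes.

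Several interferon-induced genes were lower in Brca1 floxed p53 tumors. Of 30 measured genes of the interferon and MHC class I list 9 fell (30%, against 7.96% of all genes called lower) and none rose, and the median difference was -0.57. Ifit3, an antiviral protein induced by type I interferon, had -0.81, 0.11, 0.30, 0.39 and 0.74 in Brca1 floxed p53 tumors, against 3.76, 1.80, 3.29 and -0.18 in p53 floxed tumors (-2.02 ± 0.56, adjusted p = 0.0147). Rsad2, viperin, had -0.44, 0.10, -0.35, 0.01 and 0.26 in Brca1 floxed p53 tumors, against 2.25, 1.15, 1.13 and -0.02 in p53 floxed tumors (-1.21 ± 0.26, adjusted p = 0.00225), and its 2 features both fell. In both genes p53 floxed tumor 4 lay among the Brca1 floxed p53 tumors and the other 3 above all of them. Tgtp1, an interferon gamma-induced GTPase, had -0.09, -0.95, -0.44, -1.02 and -0.45 in Brca1 floxed p53 tumors, against 1.82, 0.22 and 0.81 in p53 floxed tumors 1 to 3 (-1.54 ± 0.37, adjusted p = 0.0054). Tap1, which carries peptides to MHC class I, had 0.03, -0.22, -0.11, -0.50 and 0.35 in Brca1 floxed p53 tumors, against 0.55, 1.21, 1.74 and 0.48 in p53 floxed tumors (-1.08 ± 0.30, adjusted p = 0.0139). Tap1 is the 1 gene of these 4 with values on all 9 arrays and no overlap.

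The further 5 that fell, named after their values were seen, were the GTPases Gbp2 (-1.73 ± 0.49) and Iigp1 (-1.23 ± 0.35), the ISG15 protease Usp18 (-1.17 ± 0.36) and the chemokines Cxcl10 (-1.03 ± 0.35) and Cxcl9 (-0.69 ± 0.21). Ifit2 had the largest difference not called (-1.16 ± 0.47). The median ratio of the 30 genes was -0.20, -0.10, 0.16, -0.25 and -0.21 in Brca1 floxed p53 tumors, against 0.59, 0.21, 0.90 and -0.03 in p53 floxed tumors. The p53 floxed arrays 1 and 3 were thus highest, while array 2 was close to Brca1 floxed p53 array 3. Among p53 null transplants, Balb/c tumors of the same series that lack p53, Ifit3 averaged 0.41 and Rsad2 0.70 (n = 5). The count rests on single p53 floxed arrays, at 3 without array 1, 5 without array 2 and 1 without array 3, and at 5 without Brca1 floxed p53 array 1. No member was called with the spread of the 9 arrays alone. With arrays 1 to 3 or 4 and 5 as the only Brca1 floxed p53 arrays 8 and 7 members fell. T and NK cell markers, which can move with such genes, had a median of -0.40 to 0.06 on the Brca1 floxed p53 arrays and -0.24 to -0.13 on the p53 floxed arrays, and their part was not tested.

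The promoters of 3 of the named interferon genes are shown because all 3 hold the interferon-stimulated response element, read here as GAAA and GAAA separated by any 2 bases, in capitals on either strand, in the 250 bases before the start (RefSeq, GRCm38.p6, written 5′ to 3′ on the gene's strand). Ifit3 lies on the plus strand (chr19:34583279-34583528), Rsad2 on the minus strand (chr12:26456453-26456702) and Tgtp1 on the minus strand (chr11:48992247-48992496).
Ifit3: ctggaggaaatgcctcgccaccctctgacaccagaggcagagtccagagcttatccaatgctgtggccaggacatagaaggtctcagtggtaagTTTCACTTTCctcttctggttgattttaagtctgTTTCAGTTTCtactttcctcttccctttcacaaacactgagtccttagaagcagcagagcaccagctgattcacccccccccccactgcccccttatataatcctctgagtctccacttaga
Rsad2: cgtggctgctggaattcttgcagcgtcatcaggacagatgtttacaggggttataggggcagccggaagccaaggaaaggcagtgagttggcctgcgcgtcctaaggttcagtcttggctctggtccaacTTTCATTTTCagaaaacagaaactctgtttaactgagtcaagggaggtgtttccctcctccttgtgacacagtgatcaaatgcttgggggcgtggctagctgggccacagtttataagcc
Tgtp1: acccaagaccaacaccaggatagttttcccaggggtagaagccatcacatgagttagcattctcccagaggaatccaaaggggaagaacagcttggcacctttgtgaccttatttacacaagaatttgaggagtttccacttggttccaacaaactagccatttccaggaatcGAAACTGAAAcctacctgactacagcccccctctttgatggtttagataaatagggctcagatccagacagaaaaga
Ifit3 holds 2 matches and the others 1 each. The element occurred in 3.3% of the 4559 tested genes with a window. It was found in 5 of the 7 windows of genes called lower and in 7 of the 20 windows of the 21 list members not called, so it was frequent over the whole list.

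The largest falls held several genes of fat, muscle and intermediary metabolism, as the plot of the leading genes by array shows. Hcst encodes DAP10, a signalling adaptor of the NKG2D receptor on natural killer and T cells. Its log2 ratios were -4.08, -3.06, -3.59, -2.83 and -3.62 in Brca1 floxed p53 tumors, against -0.23, -0.59, -0.50 and -0.45 in p53 floxed tumors, a 7.97-fold difference (-2.99 ± 0.23, adjusted p = 3.26e-11). The 2 groups are separated by more than 2 log2 units, and the difference was called with the 9 arrays alone (adjusted p = 0.000915). Of the 15 T and NK cell markers measured, 1 rose and 1 fell, so Hcst was not matched by that list. Ephx2, soluble epoxide hydrolase, had -4.30, -3.26, -3.42, -2.38 and -2.87 in Brca1 floxed p53 tumors, against -0.92, -0.44, -0.32 and -0.44 in p53 floxed tumors (-2.71 ± 0.33, adjusted p = 3.45e-06).

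**Figure D4:**
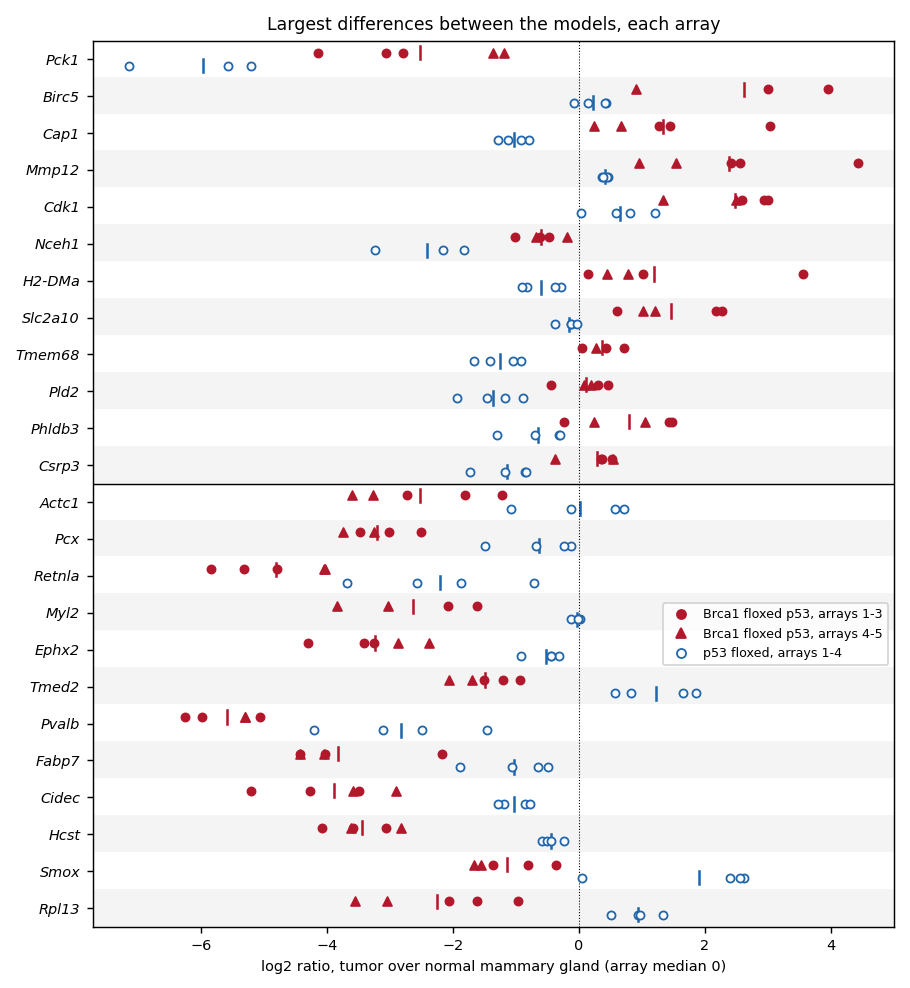
Log2 ratio of tumor over normal gland on each array for the 12 largest rises (top) and 12 largest falls (bottom) among called genes whose groups do not overlap. Brca1 floxed p53 arrays are filled (circles 1 to 3, triangles 4 and 5), p53 floxed arrays open, and short bars give group means. Falls range from -3.19 (Rpl13) to -2.55 (Actc1) and rises from 1.43 (Csrp3) to 3.46 (Pck1).

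Adipocyte transcripts were below normal gland in both models. The median ratio of 16 measured adipocyte markers was -3.12, -2.97, -3.58, -2.52 and -2.27 in Brca1 floxed p53 tumors, against -2.01, -1.66, -1.64 and -1.47 in p53 floxed tumors, so the groups do not overlap on this score. Of the 16 genes 3 fell and 1 rose (25% called, against 13.2% of all genes). The median difference was -0.87, and -0.24 after quantile normalization. Cidec, a protein of the lipid droplet, had -5.20, -3.50, -4.27, -2.91 and -3.59 in Brca1 floxed p53 tumors, against -1.20, -0.86, -0.77 and -1.28 in p53 floxed tumors (-2.87 ± 0.37, adjusted p = 5.47e-06). Sncg, a synuclein of fat cells, fell by 2.17 on the log2 scale and the fatty acid transporter Cd36 by 1.70. Adipoq, the adipocyte hormone adiponectin, had -3.79, -4.80, -4.57, -3.83 and -5.0 in Brca1 floxed p53 tumors, against -3.13, -3.87, -3.55 and -3.70 in p53 floxed tumors, and was not called (-0.84 ± 0.41, adjusted p = 0.175). Lpl, lipoprotein lipase, had the largest difference not called (-1.56 ± 0.61).

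Pck1, listed with the adipocyte genes, was the largest rise of all. It encodes the cytosolic phosphoenolpyruvate carboxykinase of gluconeogenesis and of glycerol synthesis in fat. Its ratios were -3.07, -2.80, -4.15, -1.20 and -1.37 in Brca1 floxed p53 tumors, against -5.57, -5.21 and -7.14 in p53 floxed tumors 2 to 4 (3.46 ± 0.91, adjusted p = 0.0106, 11-fold). Both models lay below normal gland, and the p53 floxed tumors lay furthest below it. Cidec and Pck1 thus differed in opposite directions on the same arrays. Among genes of lipid synthesis 3 of 14 fell and none rose (21.4%, against 7.96% of all genes called lower). Pcx, pyruvate carboxylase, had -3.01, -2.51, -3.48, -3.25 and -3.75 in Brca1 floxed p53 tumors, against -1.49, -0.68, -0.12 and -0.24 in p53 floxed tumors (-2.57 ± 0.47, adjusted p = 0.00045). Fasn, fatty acid synthase, fell by 1.33 on the log2 scale, although its 2 features differed, at -0.70 and -1.96. Hmgcs1, of cholesterol synthesis, differed by -1.45 ± 0.32. With the mean of the adipocyte list as a covariate of the fit 697 genes were called.

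As a list, skeletal muscle genes had a lower median on every Brca1 floxed p53 array. The median of 24 measured muscle genes was -3.73, -2.94, -2.91, -2.82 and -3.34 in Brca1 floxed p53 tumors, against -1.51, -1.73, -1.85 and -1.80 in p53 floxed tumors. Of these 24 genes 9 fell and none rose (37.5%, against 7.96% of all genes called lower). The median difference was -0.90, and -0.33 after quantile normalization. Pvalb, the calcium buffer of fast fibres, had -6.25, -5.07, -5.99, -5.30 and -5.30 in Brca1 floxed p53 tumors, against -3.11, -2.49, -4.21 and -1.46 in p53 floxed tumors (-2.76 ± 0.54, adjusted p = 0.000866). Myl2, a myosin light chain of slow fibres, had -2.08, -1.61, -3.04 and -3.84 in Brca1 floxed p53 tumors 2 to 5, against 0.01, -0.02, -0.12 and -0.01 in p53 floxed tumors (-2.61 ± 0.37, adjusted p = 1.78e-05). Unlike Pvalb, Myl2 was at the array median in all 4 p53 floxed tumors. Actn3, an actinin of fast fibres, had -1.72, -1.21, -1.64, -1.85 and -1.57 in Brca1 floxed p53 tumors, against 0.19, -0.31, -0.18 and -0.18 in p53 floxed tumors (-1.48 ± 0.21, adjusted p = 1.85e-05), and Tnnc1, troponin C of slow fibres, fell by 1.71. Casq1, a calcium store protein, had the largest difference not called (-1.73 ± 0.63, adjusted p = 0.062). Muscle is not part of the mammary epithelium, and the level of these genes in each normal gland sample was not measured separately. With quantile normalization or with the 9 arrays alone 4 members fell, and with arrays 4 and 5 alone 9 fell and 1 rose. With the muscle list as a covariate 672 genes were called over all genes.

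**Figure D5:**
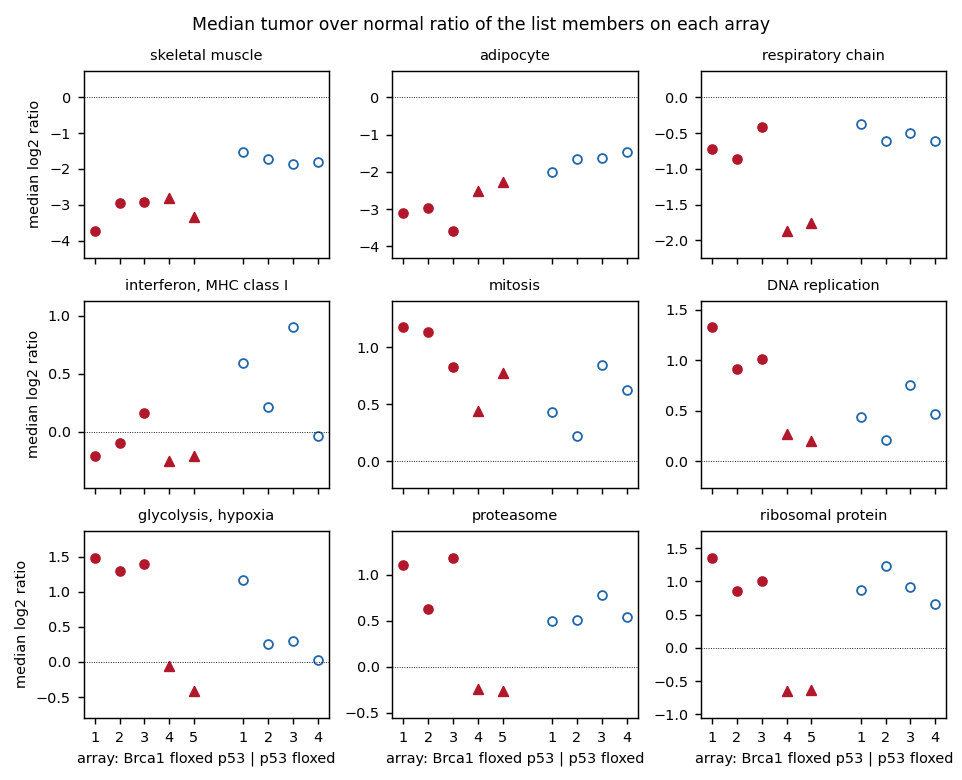
Median log2 ratio of tumor over normal gland over the measured members of 9 gene lists on each array, Brca1 floxed p53 arrays 1 to 5 on the left (circles 1 to 3, triangles 4 and 5) and p53 floxed arrays 1 to 4 on the right (open). Muscle and adipocyte medians separate the models, whereas ribosomal protein, proteasome and glycolysis medians separate Brca1 floxed p53 arrays 4 and 5 from the other arrays of their own model.

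Several groups of genes used by every cell differed within the Brca1 floxed p53 model. The median of 24 ribosomal protein genes was 1.36, 0.85, 1.00, -0.65 and -0.63 in Brca1 floxed p53 tumors 1 to 5, against 0.87, 1.23, 0.92 and 0.66 in p53 floxed tumors. Arrays 4 and 5 thus lay below all others. Proteasome genes (22 measured) gave 1.11, 0.63, 1.19, -0.24 and -0.26 in Brca1 floxed p53 tumors, against 0.50 to 0.78 in p53 floxed tumors. Genes of the respiratory chain (28 measured) gave -0.72, -0.86, -0.42, -1.87 and -1.75 in Brca1 floxed p53 tumors, against -0.61 to -0.37 in p53 floxed tumors. These splits follow the 2 runs of array numbers, and their part in the difference between tumors 1 to 3 and tumors 4 and 5 cannot be told apart. Of 28 respiratory chain genes 5 fell and none rose over all 5 arrays (17.9%, against 7.96% of all genes called lower). But 21 of 27 fell with arrays 4 and 5 alone and 2 of 25 with arrays 1 to 3 alone. Uqcr11, a subunit of complex III, was the most changed of them, with -2.46, -1.43, -1.22, -2.48 and -2.43 in Brca1 floxed p53 tumors, against -0.10, -0.39, -0.64 and 0.47 in p53 floxed tumors (-1.84 ± 0.30, adjusted p = 0.000102). It was lower in both runs. Atp5a1, of the ATP synthase, had the largest difference not called in this list (-1.20 ± 0.48).

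Rpl13 was the 1 ribosomal protein gene called of 24 (4.17%, against 13.2% of all genes), and the largest fall of all. Its ratios were -2.07, -1.62, -0.97, -3.06 and -3.55 in Brca1 floxed p53 tumors, against 1.33, 0.94, 0.51 and 0.96 in p53 floxed tumors, a 9.10-fold difference (-3.19 ± 0.34, adjusted p = 2.27e-07). On Brca1 floxed p53 arrays 1 to 3 it stood below the array median while the list's median stood above it. Ribosomal protein genes have many near-identical pseudogenes that a cDNA feature cannot separate, so the value is uncertain as a measure of Rpl13 alone. The next ribosomal protein gene, Rpl27a, differed by -0.90 ± 0.34 and was not called. Among chaperones 3 of 23 fell (13% called, as over all genes), with the chaperonin subunit Cct5 at -1.34 ± 0.32, the co-chaperone Ptges3 at -0.80 ± 0.18 and Hspa1a at -1.15 ± 0.36. Hspa9, the mitochondrial chaperone, was not called (-0.97 ± 0.37). With arrays 1 to 3 alone 1 chaperone of 21 was lower and 2 were higher, and with arrays 4 and 5 alone 16 of 20 were lower. Cct5 (-0.80) and Hspa1a (-0.58) were not called with arrays 1 to 3 alone. The proteasome subunits Psma3 (-1.07 ± 0.27) and Psmb7 (-1.43 ± 0.48) fell, and Psma2 was not called (-0.79 ± 0.32). Neither of the 2 was called with arrays 1 to 3 alone, where Psma3 differed by -0.61 and Psmb7 by -0.43, against -1.77 and -2.94 with arrays 4 and 5 alone. Of the proteasome list 6 of 20 were higher with arrays 1 to 3 alone and 16 of 21 lower with arrays 4 and 5 alone. In the endoplasmic reticulum list 3 of 17 fell and none rose (17.6%, against 7.96% of all genes called lower). They were the chaperone Hspa5 (-1.34 ± 0.40) and its partners Dnajc3 (-0.98 ± 0.26) and Dnajb9 (-0.89 ± 0.25), and P4hb was not called (0.64 ± 0.50). The list's median difference was 0.16, with 10 members above 0 and 7 below. It was 0.46 with arrays 1 to 3 alone and -0.46 with arrays 4 and 5 alone. No member was called with the 9 arrays alone, with the number run as a block or after quantile normalization.

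Of 26 RNA processing genes 5 fell and none rose (19.2% called, against 13.2% of all genes). They included the hnRNP proteins Hnrnpa3, with 1.45, 0.24, 0.86, 0.31 and 0.19 in Brca1 floxed p53 tumors, against 1.55, 2.33, 1.70 and 1.71 in p53 floxed tumors (-1.21 ± 0.28, adjusted p = 0.00338), and Hnrnph1 (-1.0 ± 0.33). The splicing factors Srsf6 (-1.20 ± 0.30) and Sfpq (-0.73 ± 0.19) also fell, and Hnrnpa2b1 was not called (-0.72 ± 0.25, adjusted p = 0.0511). The 2 features of Sfpq differed, at -0.05 and -0.87. After quantile normalization its difference was -0.38 and not called (adjusted p = 0.176). No RNA processing gene was called with the 9 arrays alone, 2 with the number run as a block and 1 after quantile normalization. With arrays 1 to 3 alone 3 of 26 were lower and 2 higher, at a median difference of -0.12. With arrays 4 and 5 alone 8 of 23 were lower and none higher, at a median of -0.62. Of 27 chromatin genes 4 fell and 1 rose (18.5% called, against 13.2% of all genes). None was called with the 9 arrays alone and 1 with the number run as a block. With arrays 1 to 3 alone 2 were higher and 2 lower. The methyl-CpG-binding protein Mbd1 (-1.38 ± 0.31), the remodelling ATPase Smarca5 (-0.92 ± 0.25) and the deacetylase Hdac1 (-0.62 ± 0.18) fell, the SWI/SNF subunit Smarcd1 rose by 0.75 ± 0.21, and Cbx3 was not called (-0.94 ± 0.41).

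Slc2a1, the Glut1 glucose transporter, rose, with 2.44, 3.33, 2.33, 1.83 and 0.69 in Brca1 floxed p53 tumors, against 1.5, -0.16, -0.01 and 0.03 in p53 floxed tumors (1.78 ± 0.33, adjusted p = 0.000515). Here p53 floxed tumor 1 lay above Brca1 floxed p53 tumor 5, so the groups overlap. The related transporter Slc2a10 had 2.17, 2.28, 0.61, 1.21 and 1.01 in Brca1 floxed p53 tumors, against -0.13, -0.12, -0.03 and -0.39 in p53 floxed tumors (1.62 ± 0.32, adjusted p = 0.00107). Its groups are apart. Slc2a4, the insulin-responsive transporter of fat and muscle, differed by -1.47 ± 0.59 and was not called. Of 15 measured glycolysis and hypoxia genes Slc2a1 was the only one called (6.67%, against 13.2% of all genes). With Brca1 floxed p53 arrays 1 to 3 alone 5 of 14 were higher, and with arrays 4 and 5 alone 5 of 12 were lower and 1 higher. The list's median was 1.49, 1.29, 1.39, -0.06 and -0.42 in Brca1 floxed p53 tumors, against 1.16, 0.25, 0.30 and 0.02 in p53 floxed tumors, so p53 floxed tumor 1 again lay nearer Brca1 floxed p53 tumors 1 to 3. Higd1a, a hypoxia-induced mitochondrial protein, had the largest difference not called (-1.48 ± 0.51, adjusted p = 0.0504), with 4.58 in p53 floxed tumor 2 and -0.64 to 1.14 in the other 3.

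Other large rises belonged to no common group. Cap1, a regulator of actin turnover, had 1.27, 1.44, 3.03, 0.24 and 0.67 in Brca1 floxed p53 tumors, against -1.13, -1.29, -0.79 and -0.93 in p53 floxed tumors (2.37 ± 0.37, adjusted p = 5.09e-05). All 5 stood above normal gland and all 4 below it. Pld2, phospholipase D, had -0.44, 0.30, 0.45, 0.08 and 0.19 in Brca1 floxed p53 tumors, against -0.88, -1.17, -1.94 and -1.46 in p53 floxed tumors (1.48 ± 0.20, adjusted p = 6.13e-06). Nceh1, which hydrolyses cholesterol esters, had -1.02, -0.47, -0.62, -0.19 and -0.68 in Brca1 floxed p53 tumors, against -1.82, -3.24 and -2.16 in p53 floxed tumors 1 to 3 (1.81 ± 0.47, adjusted p = 0.009). In both genes p53 floxed tumors lay further below normal gland than any Brca1 floxed p53 tumor. Tmem68 (1.62 ± 0.23), Phldb3 (1.45 ± 0.35) and Csrp3, a muscle LIM protein (1.43 ± 0.34), completed the 12 largest rises together with Mmp12 and H2-DMa, described with the immune genes. Csrp3 rose while the muscle list fell.

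The remaining large falls were as varied. Smox, spermine oxidase, had -0.80, -0.36, -1.36, -1.55 and -1.66 in Brca1 floxed p53 tumors, against 0.04, 2.62, 2.56 and 2.40 in p53 floxed tumors (-3.05 ± 0.39, adjusted p = 3.45e-06). p53 floxed tumors 2 to 4 stood far above normal gland, p53 floxed tumor 1 stood near the array median, and the groups do not overlap. Tmed2, a cargo receptor between endoplasmic reticulum and Golgi, had -1.21, -1.51, -0.94, -2.07 and -1.70 in Brca1 floxed p53 tumors, against 1.66, 0.57, 1.85 and 0.83 in p53 floxed tumors (-2.71 ± 0.76, adjusted p = 0.0154). The fatty acid-binding protein Fabp7 (-2.80 ± 0.62), the resistin-like hormone Retnla (-2.60 ± 0.63) and Actc1, cardiac actin (-2.55 ± 0.54), were the others, and actin genes share long stretches of sequence that a cDNA feature may not separate. Of the 12 largest rises 7 were called with the 9 arrays alone and 10 with the number run as a block, and of the 12 largest falls 11 and 10. After quantile normalization all 12 rises and 8 of the 12 falls were called. Among all 116 named genes that were called, quantile normalization ended the call of 57. In 24 of the 57 it also made the difference over 1.5 times smaller, all of them lower in Brca1 floxed p53 tumors. Among those described here were Fabp7 (-1.84), Pcx (-1.58), Rb1 (-0.46), Tek (-0.67), Kdr (-0.25), Tnnc1 (-0.89), Cd36 (-0.86), Fasn (-0.48), Lama2 (-0.60), Zeb2 (-0.54), Irs2 (-0.53) and Srsf6 (-0.77), each given as its difference after quantile normalization.

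Epithelial markers did not separate the models, and single tumors stood out in each. Epcam, an adhesion protein of epithelial cells, had 3.53, 2.48, -2.52, 1.15 and 1.92 in Brca1 floxed p53 tumors, against -2.18, 2.92, 3.69 and 2.89 in p53 floxed tumors. Brca1 floxed p53 tumor 3 and p53 floxed tumor 1 were thus far below normal gland, and the other 7 tumors above it (difference -0.52 ± 0.86, not called). Cdh1, E-cadherin, was lowest in the same tumor of each model, at -0.16 in Brca1 floxed p53 tumor 3 and 0.68 to 2.49 in the other 4, against -1.04 in p53 floxed tumor 1 and -0.08 to 2.02 in the other 3. Krt8, a luminal keratin, differed by -0.64 ± 0.68 and Krt5, a basal keratin, by -0.35 ± 0.65, with Krt5 ranging from -1.08 to 2.61 in Brca1 floxed p53 tumors and from -0.97 to 4.03 in p53 floxed tumors. Esr1, Pgr, Erbb2, Krt14, Krt18 and Vim were not analysed here. Gata3, a luminal transcription factor, was not called (-0.36 ± 0.35), and Egfr neither (0.24 ± 0.20).

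Of 15 luminal genes 2 fell (13.3% called, against 13.2% of all genes). Ghr, the growth hormone receptor, had -2.36, -3.28, -1.93, -2.01 and -1.76 in Brca1 floxed p53 tumors, against 0.01, -0.64, -0.89 and -0.65 in p53 floxed tumors (-1.73 ± 0.26, adjusted p = 2.31e-05), and the trefoil factor Tff3 fell by 0.57. Cldn4, a tight junction protein, was not called (0.80 ± 0.29, adjusted p = 0.0549). Milk and secretory genes showed 1 fall in 16 (6.25% called, against 13.2% of all genes), the phosphate transporter Slc34a2 (-0.95 ± 0.29). Lcn2, lipocalin 2, had the largest difference not called (-2.01 ± 1.01). It ranged from -0.98 to 5.08 in Brca1 floxed p53 tumors and from -0.60 to 6.92 in p53 floxed tumors. Of 24 basal and myoepithelial genes Cnn1, calponin, rose by 1.23 ± 0.36 and Sfn fell (8.33% called, against 13.2% of all genes). Acta2, smooth muscle actin, was not called (-1.86 ± 0.74, adjusted p = 0.0869). In the junction list 1 of 19 fell (5.26% called, against 13.2% of all genes). It was Ctnnd1, p120 catenin, which stabilises cadherins, with -1.33, -1.24, -0.78, -0.78 and -0.87 in Brca1 floxed p53 tumors, against -0.07, 0.28, 0.23 and 0.50 in p53 floxed tumors (-1.23 ± 0.34, adjusted p = 0.0129). The gap junction protein Gja1 was not called (-0.92 ± 0.37). No gene of the 14 squamous genes was called, and Ppl, periplakin, had the largest difference (0.75 ± 0.34).

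Stromal genes moved in both directions. Of 29 fibroblast and matrix genes 4 fell and 2 rose (20.7% called, against 13.2% of all genes), at a median difference of -0.48. Mfap4, a protein of elastic microfibrils, had -0.98, -0.85, -0.67, -0.57 and -1.70 in Brca1 floxed p53 tumors, against 0.85, 1.07, 1.42 and 1.32 in p53 floxed tumors (-2.12 ± 0.36, adjusted p = 0.000177), and its groups lie on either side of 0. Dcn, the proteoglycan decorin, had -3.91, -3.29, 1.17, -3.52 and -3.55 in Brca1 floxed p53 tumors, against -0.53, 0.09 and 0.44 in p53 floxed tumors 1, 3 and 4 (-2.62 ± 0.65, adjusted p = 0.00689). Brca1 floxed p53 tumor 3, the Epcam-low tumor of its model, was the exception. Timp1, an inhibitor of metalloproteinases, rose, with 0.11, 3.08, 3.68, 2.27 and 1.19 in Brca1 floxed p53 tumors, against 1.36, -0.17, 0.23 and 0.30 in p53 floxed tumors (1.63 ± 0.40, adjusted p = 0.0056). Mfap5 fell by 0.82, and the collagen Col1a2 was not called (-1.34 ± 0.48, adjusted p = 0.0597). Of 23 mesenchymal genes the transcription factor Zeb2 fell (-1.03 ± 0.28) and none rose (4.35% called, against 13.2% of all genes). Tgfbi was not called (-1.06 ± 0.43).

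In the basement membrane list 3 of 20 fell and 1 rose (20% called, against 13.2% of all genes), none of them called with the 9 arrays alone. The list's median difference was -0.0005 with Brca1 floxed p53 arrays 1 to 3 alone and -0.72 with arrays 4 and 5 alone. The laminin chain Lamb2 had -0.90, -0.84, -0.82, -1.02 and -1.81 in Brca1 floxed p53 tumors, against -0.06, -0.13, 0.22 and -0.04 in p53 floxed tumors (-1.07 ± 0.17, adjusted p = 9.17e-05). Lama2 (-1.38 ± 0.35) and Col18a1 (-1.05 ± 0.29) fell as well, Hspg2, perlecan, rose by 1.15 ± 0.34, and Dag1, dystroglycan, was not called (-1.12 ± 0.51). Col18a1 (-0.625) was not called with arrays 1 to 3 alone, nor were Lama2 (-0.97) and Hspg2 (0.54) with arrays 4 and 5 alone. Among vascular genes the receptors of the VEGF and angiopoietin systems went different ways. Flt1, the VEGF receptor that also acts as a decoy, had 0.26, 0.88, 0.46, 0.36 and 0.56 in Brca1 floxed p53 tumors, against -0.78, -0.24, -0.93 and -0.63 in p53 floxed tumors (1.15 ± 0.27, adjusted p = 0.00499). Tek, the angiopoietin receptor, had -1.71, -1.75, -2.07, -0.91 and -0.97 in Brca1 floxed p53 tumors, against -0.20, -0.56 and -0.04 in p53 floxed tumors 1, 3 and 4 (-1.22 ± 0.27, adjusted p = 0.00258). Both genes separate the groups, in opposite directions. Kdr, the main signalling VEGF receptor, fell by 0.64, though 1 of its 2 features showed -1.17 and the other -0.12, and the endothelial factor Sox18 fell by 0.69. In all 2 of 16 endothelial genes rose and 3 fell (31.2% called, against 13.2% of all genes), and Icam2 was not called (0.58 ± 0.21). Of the list only Flt1 was called with the 9 arrays alone. Of 13 smooth muscle and pericyte genes Myl9 (-1.75 ± 0.49) and Actg2 (-2.19 ± 0.75) fell and Cnn1 rose (23.1% called, against 13.2% of all genes). With arrays 1 to 3 alone Myl9 (-0.86) and Actg2 (-1.07) were not called, and with arrays 4 and 5 alone they differed by -3.08 and -3.87. No member of the list was called with the 9 arrays alone, with the number run as a block or after quantile normalization.

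Of 36 myeloid genes 3 rose and 1 fell (11.1% called, against 13.2% of all genes). The list's median difference was -0.10, with 16 members above 0 and 20 below. No member was called with the 9 arrays alone or with the number run as a block. With arrays 1 to 3 alone 7 of 31 were higher and 3 lower. With arrays 4 and 5 alone 1 of 34 was higher and 9 were lower. Fcgr1, a high-affinity receptor for IgG on macrophages, had 0.40, 1.57, 2.56, 0.51 and 0.58 in Brca1 floxed p53 tumors, against 0.36, -0.01, -0.27 and -0.15 in p53 floxed tumors (1.14 ± 0.27, adjusted p = 0.00411). S100a8, a calprotectin subunit of neutrophils, rose by 1.52 ± 0.47 and the integrin Itgam by 1.07 ± 0.37, while the monocyte receptor Ccr2 fell by 0.90. Outside this list, Mmp12, macrophage elastase, had 2.56, 2.41, 4.43, 1.55 and 0.96 in Brca1 floxed p53 tumors, against 0.47, 0.44, 0.37 and 0.38 in p53 floxed tumors (1.97 ± 0.34, adjusted p = 0.000194). H2-DMa, which loads peptides on MHC class II, had 0.15, 1.02, 3.56, 0.79 and 0.45 in Brca1 floxed p53 tumors, against -0.83, -0.28, -0.90 and -0.38 in p53 floxed tumors (1.79 ± 0.34, adjusted p = 0.000761). Brca1 floxed p53 tumor 3 was the highest of all 9 for Fcgr1, Mmp12 and H2-DMa, and on that array the median of 36 myeloid genes was 1.68, against 0.10 to 0.85 on the other 4 and 0.11 to 0.74 on the p53 floxed arrays. H2-DMa was the 1 gene called of 8 in the MHC class II list (12.5%, against 13.2% of all genes). Cd74, the invariant chain, was not called (-0.93 ± 0.65), with 3.42 in tumor 3.

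Lymphocyte markers showed single genes, with 13.3% called in the T and NK cell list and in the B cell list, against 13.2% of all genes. Of 15 T and NK cell genes the co-stimulatory receptor Cd27 rose, with 0.15, 0.87, -0.14, 0.84 and 0.41 in Brca1 floxed p53 tumors, against -0.50, -0.50, -0.41 and -0.60 in p53 floxed tumors (0.93 ± 0.20, adjusted p = 0.00181), granzyme A, Gzma, fell by 0.75, and Lat was not called (-0.57 ± 0.21). Of 15 B cell genes Cd22 rose by 0.89 ± 0.27 and the complement receptor Cr2 fell by 0.83, and Ebf1 was not called (0.64 ± 0.24). Cytokines and their receptors gave 1 rise and 1 fall in 37 (5.41% called, against 13.2% of all genes). The rise was the chemokine Ccl22 (0.82 ± 0.23) and the fall the interleukin 1 receptor Il1r1 (-0.87 ± 0.22). Il33 was not called (-1.18 ± 0.42, adjusted p = 0.0548), with 3.34 in p53 floxed tumor 1.

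Of 35 growth factor signalling genes 4 fell and none rose (11.4% called, against 13.2% of all genes), and the median difference was 0.006. Igfbp6, a binding protein with preference for IGF2, had -2.31, -1.97, -2.43, -1.61 and -2.22 in Brca1 floxed p53 tumors, against 0.15, 0.03, -0.59 and -0.33 in p53 floxed tumors, with an adjusted p of 1.85e-05. Fgf10, the mesenchymal growth factor needed for mammary bud formation, had -1.81, -1.86, -1.81, -1.35 and -1.68 in Brca1 floxed p53 tumors, against -0.25, -0.59, -0.20 and -0.28 in p53 floxed tumors (-1.38 ± 0.22, adjusted p = 5.12e-05). Both sets of Brca1 floxed p53 values are tight and far from the p53 floxed values, and both were called with the 9 arrays alone. The insulin receptor substrate Irs2 (-1.27 ± 0.39) and the PI3-kinase subunit Pik3ca (-0.56 ± 0.19) fell as well. Igfbp2 had the largest difference not called (-1.53 ± 0.62). Of 33 Notch and Wnt genes 3 rose and none fell (9.09% called, against 13.2% of all genes). They were Nrarp, a feedback target of Notch (1.02 ± 0.27), the fringe glycosyltransferase Rfng (0.95 ± 0.27) and the Wnt effector Tcf7l2 (0.99 ± 0.30), none called with the 9 arrays alone. Ctnnb1, beta-catenin, was not called (-0.84 ± 0.45), with 4.43 in p53 floxed tumor 2, the tumor that also had the highest Krt5 and Higd1a of its model.

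Of 16 immediate early genes none was called, and Jund differed most (-1.07 ± 0.43, adjusted p = 0.0929). Neural genes gave 4 rises and 2 falls in 24 (25% called, against 13.2% of all genes). No member was called with the 9 arrays alone or with the number run as a block. The neuronal phosphoprotein Dpysl3 rose by 1.00 ± 0.26 and the granin Scg3 by 0.62 ± 0.20, Nsg1 fell by 0.86 and the stathmin Stmn3 by 0.62, and the adhesion molecule Ncam1 was not called (0.88 ± 0.44). Of 4 erythroid genes 1 rose and 1 fell (50% called, against 13.2% of all genes), and none was called with the 9 arrays alone. The transferrin receptor Tfrc fell, with 0.30, -0.18, 0.06, 0.26 and 0.78 in Brca1 floxed p53 tumors, against 2.63, 0.97, 0.93 and 1.17 in p53 floxed tumors (-1.18 ± 0.39, adjusted p = 0.0407). The red cell anion exchanger Slc4a1 rose by 0.66 ± 0.22, and Alas2, of heme synthesis, was not called (0.36 ± 0.26).

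Means of the p53 null transplants, which lack p53 and whose label names no Brca1 allele, and of the C3(1) Tag tumors, in which SV40 T antigen inactivates p53 and Rb, place the leading genes. In 22 of the 24 largest differences the p53 null mean (n = 5) lay nearer the p53 floxed than the Brca1 floxed p53 mean, the exceptions being Pck1 and Cap1. For C3(1) Tag tumors (n = 5) the number was 18 of 24. Hcst averaged -0.28 in p53 null and -0.74 in C3(1) Tag tumors, against -3.44 in Brca1 floxed p53 tumors and -0.44 in p53 floxed tumors. Pld2 averaged -1.43 in p53 null and -0.15 in C3(1) Tag tumors. Cap1 averaged 1.18 and 1.24 there, so that p53 floxed tumors, at -1.04, were the ones that stood apart, and Cdk4 averaged 2.68 in p53 null and 1.35 in C3(1) Tag tumors. These models come from other strains, Balb/c and FVB, and the p53 null arrays lie next to the p53 floxed arrays in number, so these values are a description only.

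The called genes were spread over the genome. The share called per chromosome ranged from 9.7% on chromosome 4 to 18.1% on the X chromosome. Chromosome 11, which holds both Brca1 and Trp53, had 497 genes tested, of which 36 rose and 27 fell (12.7% called), with a median difference of 0.003.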

How the data were processed

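The deposited files hold, per array feature, the authors' log2 ratio of the tumor channel over the normal gland channel. The labels state neither direction nor base, so both were checked on the values: the 9 direct arrays correlated at r = 0.28 to 0.43, across genes, with the mammary tumor change on the reference arrays, where 9 of 9 lung markers were higher in normal lung, and the feature filter named in the series text gave its count of 2638 features with log2. The scanning, background and normalization steps behind these deposited ratios are not given in the sources used here. The 5 and 4 arrays have no dye swaps.

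Of 9596 features, 7486 were given 1 gene symbol (7395 through the gene ID), 483 had several and 1627 none. Features of a gene were averaged, each array was centred on its median, and 5768 genes were tested. limma 3.58.1 in R 4.3.3 (lmFit and eBayes) fitted the means of 8 models on all 38 direct arrays, and p-values were adjusted over all 5768 genes by Benjamini-Hochberg. Tests of each model against normal gland were not reported. The code was tested on simulated data. Figures used matplotlib 3.10.9.

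Named genes were the 12 largest rises and falls among called genes without overlap, up to 4 called genes with the smallest p from each of 38 lists, 25 chosen genes, and each list's largest difference not called. The members and lists were chosen with earlier results of these data known.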

Additional observations from a re-analysis of the deposited data

Results flagged for a closer look

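Within a group of 4 or 5 arrays, 1 array lay far from the others, by Dixon's ratio of gap to range, in 21 of 321 comparisons, and chance gives about 1 in 20. In Brca1 floxed p53 tumors these were array 1 for Fabp7 (-2.17), Hnrnph1 (0.069) and Cdkn1a (3.55), array 3 for H2-DMa (3.56) and Dcn (1.17), and array 5 for Csrp3 (-0.38), Lamb2 (-1.81) and Igfbp2 (1.88). In p53 floxed tumors array 1 stood apart for Smox (0.042), E2f3 (0.46), Col18a1 (1.37), Slc2a1 (1.5), Atp5a1 (2.42), Tfrc (2.63), Gata3 (-1.86) and Epcam (-2.18), and also in its median ratio as deposited (0.18). The others there were array 2 for Gja1 (2.78), array 3 for Dag1 (2.73) and array 4 for Acta2 (-0.46) and Ncam1 (-0.57).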

How the results depend on the processing

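The 764 calls (305 higher, 459 lower) became 267 (143 higher, 124 lower) after quantile normalization, 52 (9 and 43) with only the 9 arrays in the fit, 277 (107 and 170) with array weights, and 363 (127 and 236) with each array divided by its median absolute deviation. Values as deposited gave 729 calls, 632 higher and 97 lower. At least a 2-fold difference was met by 283 of the calls. Chosen after seeing the data, the number run as a random block gave 205 calls (76 and 129), Brca1 floxed p53 arrays 1 to 3 only gave 892 (494 and 398), and arrays 4 and 5 only gave 1225 (417 and 808). The same replicate numbers did not pair the arrays: deviations of arrays sharing a number correlated at -0.20, -0.05, 0.03 and 0.06 over genes. The replicate block, fitted on the 9 arrays, gave 11 calls (2 and 9). Leaving out 1 array gave 503 to 946 calls, 200 to 370 higher and 293 to 576 lower. Requiring at least 2 values in each group left the count at 764.

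The 10 mitosis genes called higher became 1 with only the 9 arrays, 1 with the replicate block, 5 with the number run block, 4 with arrays 4 and 5 only and 4 with scaling by the median absolute deviation, and 9 to 11 with 1 array left out. The 9 interferon genes called lower became 2 with values as deposited, 1 after quantile normalization, 0 with only the 9 arrays, with array weights and with the replicate block, 2 with the number run block and 4 with that scaling, and 1 to 11 with 1 array left out. The 9 muscle genes called lower became 5 with values as deposited, with the muscle mean as covariate and with the number run block, 4 after quantile normalization and with only the 9 arrays, 3 with array weights and that scaling, and 1 with the replicate block, and 7 to 10 with 1 array left out. The 3 adipocyte genes became 0 with the replicate block, and 3 to 4 with 1 array left out. The cause of these moves was not tested.

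The Brca1 difference of 1.16 was not called after quantile normalization (0.95), with only the 9 arrays (1.16), with array weights (1.27), with the replicate block (0.97), with the adipocyte mean as covariate (1.12), with the number run block (1.13), with arrays 4 and 5 only (0.68) or with the scaling (0.82), and ranged from 0.86 to 1.41 with 1 array left out. Of 116 named genes called, 1 changed sign under any of these, Itgam at -0.11 with arrays 4 and 5 only. With only the 9 arrays 32 of the 116 stayed called, 51 with the number run block and 59 after quantile normalization. The number of arrays limits the precision.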
